A study of Rattus norvegicus with 6 samples.

Results

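The decidual cell products and stromal markers described here are 10 genes, which were followed in the metrial gland of pregnant rats, a tissue of the uterine wall that lies beneath the placenta. The rule lists them by name and uses no measured value, although the list was drawn up with earlier results of these data known: Prl8a2, Prlr, A2m, Des, Vim, Alpl, Gja1, Pdgfra, Wnt4 and Lif. They are 10 of the 14217 genes named by a probe set with 1 gene symbol, and had 15 of the 31042 probe sets that remained on the array without its controls. Tissue was taken at gestation day 13.5 from rats kept in ambient air with 21% oxygen (3 arrays) or in hypoxia with 10.5% oxygen (3 arrays), and both groups were held at their oxygen level from day 6.5 to day 13.5. The labels give no strain, no genotype and no pooling of animals, and every sample is RNA of the whole tissue, read on 1 Affymetrix rat array. Nor do they say whether replicates are separate animals, and a p-value here reflects the spread among these arrays, which could be technical.

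Decidual cells are stromal cells of the uterus that enlarge and change their products after the embryo attaches. In rodents they form the bed in which the placenta is anchored, and in the metrial gland they lie among natural killer cells, vessels and invading trophoblast. They build desmin and vimentin filaments, couple through gap junctions, secrete protease inhibitors and hormones of the prolactin family, and answer to prolactin through its receptor. Leukaemia inhibitory factor, Wnt4 and tissue alkaline phosphatase are known from the start of the reaction, around implantation.

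Promoter sequence is shown for Prl8a2, Gja1 and Pdgfra, the genes with a probe set on which the arrays of the groups did not overlap. Each line runs 5′ to 3′ on the gene's strand, from RefSeq on rat build GRCr8, and covers up to 250 bases before a transcript start; gene positions given later are from the same build. Bases inside the annotated gene were left off, 74 for Gja1 and 88 for Pdgfra. Capitals mark a hypoxia response core (ACGTG or GCGTG on either strand) or a STAT site (TTCNNNGAA), the kind of site bound by the factors that act below the prolactin receptor.
Prl8a2, chr17:37830677-37830926, minus strand: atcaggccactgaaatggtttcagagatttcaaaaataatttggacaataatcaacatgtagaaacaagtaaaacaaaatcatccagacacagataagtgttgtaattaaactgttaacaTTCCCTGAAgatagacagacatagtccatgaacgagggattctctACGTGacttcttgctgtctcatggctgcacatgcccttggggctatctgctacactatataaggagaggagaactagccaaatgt
Gja1, chr20:36302314-36302489, plus strand: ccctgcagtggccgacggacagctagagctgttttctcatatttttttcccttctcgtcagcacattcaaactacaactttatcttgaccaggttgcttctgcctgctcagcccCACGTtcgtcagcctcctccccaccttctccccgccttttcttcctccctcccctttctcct
Pdgfra, chr14:33408605-33408766, minus strand: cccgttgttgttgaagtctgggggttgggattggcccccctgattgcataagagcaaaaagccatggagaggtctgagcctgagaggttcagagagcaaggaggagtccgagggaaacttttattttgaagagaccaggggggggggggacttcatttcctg
The Prl8a2 window held both motifs, the STAT site from 130 to 122 bases and the hypoxia core from 85 to 81 bases before the start. The Gja1 line held a hypoxia core alone, and the Pdgfra line held neither. Of the 10 genes, 8 were found in the promoter table, with 9 windows because Prlr has 2. A hypoxia core lay in a window of 4 of the 8 genes and a STAT site in 2, against 36.7% and 7.67% of all 33469 windows of 250 bases. TATAAA was found in 1 of the 8 (12.9% of all windows), AGATAA or TGATAA in 2 (16.9%), and CAGCTG or CACGTG, the last of which contains ACGTG, in 1 (16.8%), on either strand. A match is a run of letters, and no binding was measured.

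Expression of the decidual hormone Prl8a2 was higher in hypoxia by 1.73 to 2.24 on the log2 scale, with a wide spread among the hypoxia arrays. The receptor gene Pdgfra and 1 of 3 probe sets of Gja1 were lower by 0.24 and 0.28, and the other member probe sets differed by less than that in either direction. None of these differences passed the test. With limma and Benjamini-Hochberg adjustment over the 18625 probe sets kept after the filter on low means, 0 of 11 kept member probe sets passed an adjusted p of 0.05, where 5.99% of all kept probe sets did, 4.02% higher and 1.97% lower. At an unadjusted p under 0.05 there were 5 of the 11, against 23.7% of all kept probe sets. The arrays of the groups did not overlap for 4 of the 11, against 29.9% of all. Counted as genes by the probe set with the highest mean, 0 of 8 members passed, against 6.7% of 10546 genes. Their median difference was 0.10, with 7 positive and 1 negative, and the median over all kept probe sets was 0.0034. Fewer cells of a type and less RNA per cell cannot be told apart in whole tissue.

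**Figure D1:**
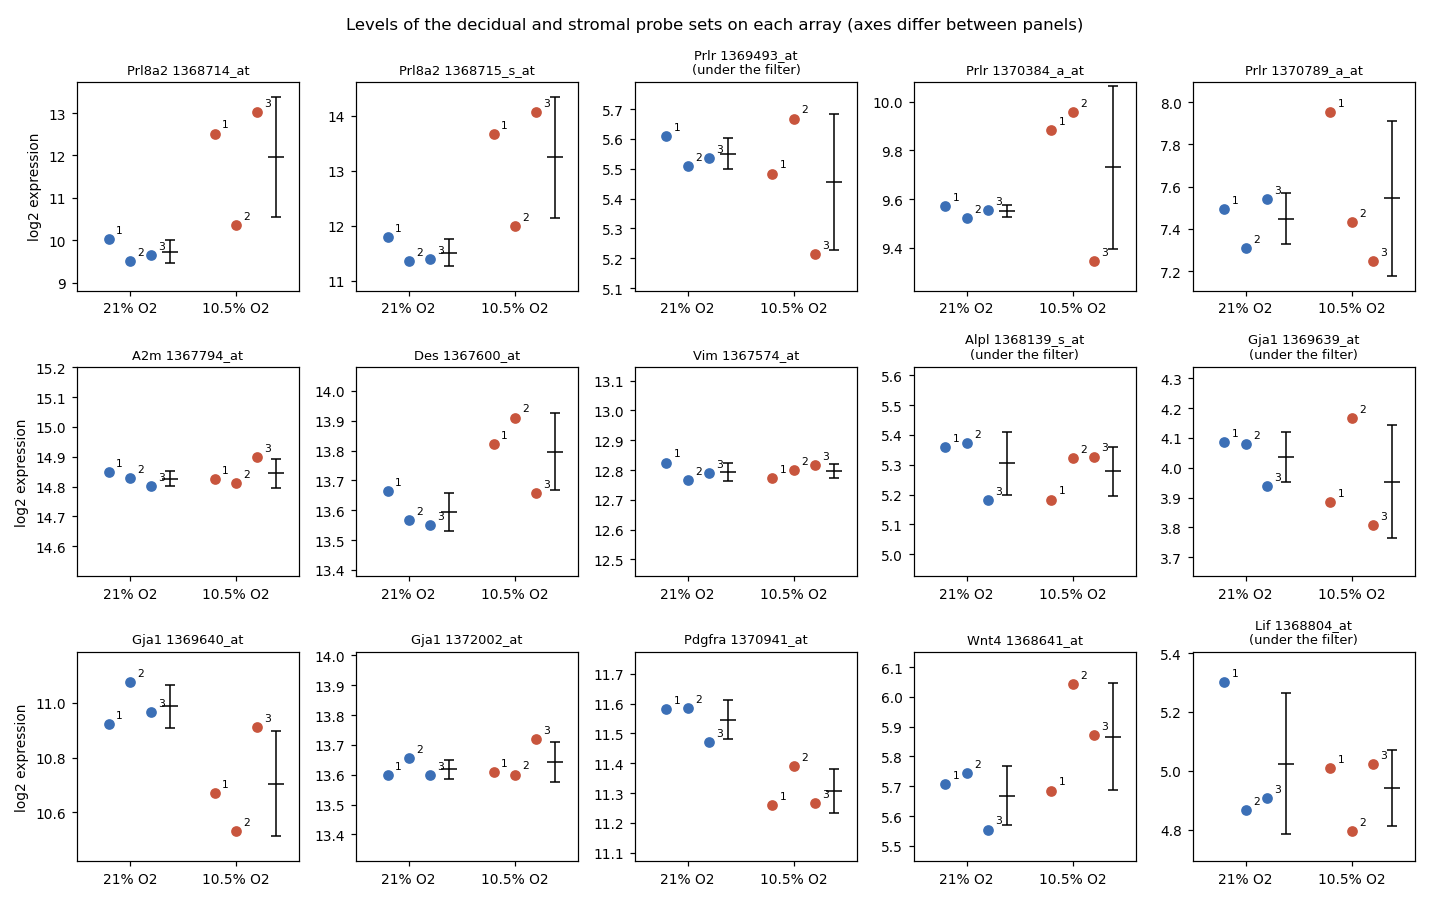
Log2 expression of every member probe set on each of the 6 arrays, ambient and hypoxia side by side, with each group's mean and SD; axes differ between panels. The hypoxia arrays of Prl8a2 are spread widely and lie above the ambient arrays, A2m and Vim lie flat, and the first Gja1 probe set and Lif lie near the bacterial control level.

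Of the 15 member probe sets, 13 stood above every bacterial control on all 6 arrays (highest control value 5.003). The tissue was checked against markers of its cell types. All 14 decidual and endometrial stroma markers on the array were measured. Of these, 0 had a mean over the 6 arrays at or below the highest bacterial control. Their summed linear signal overlapped between the groups, from 91866 to 98316 in ambient and from 93248 to 101511 in hypoxia. Of these 14, 2 passed and were higher (Hand2 and Eng), as did 4.48% of all genes, and Hand2 kept its call without any 1 array. Eng, which vessels also express, lost its call without any 1 array but hypoxia replicate 3.

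Prl8a2 encodes decidual prolactin-related protein, a hormone secreted by decidual cells (chr17:37821651-37830676). Its probe set 1368714_at stood at 10.03, 9.52 and 9.65 on ambient replicates 1 to 3 and at 12.52, 10.36 and 13.03 on hypoxia replicates 1 to 3. All hypoxia arrays lay above all ambient arrays, but hypoxia replicate 2 lay only 0.33 above the highest of them. The difference was 2.24 (SE 0.59, 95% interval from 0.87 to 3.60), or 4.71-fold, and did not pass (limma adjusted p = 0.0668). The other probe set, 1368715_s_at, stood at 11.78, 11.36 and 11.38 in ambient and at 13.66, 11.996 and 14.07 in hypoxia, so both probe sets placed the hypoxia arrays in the same order. Its difference was 1.73 (SE 0.46, 95% interval from 0.67 to 2.80), or 3.33-fold (limma adjusted p = 0.0683). Probe sets of the prolactin family can bind transcripts of close relatives, so the value of any single member is uncertain.

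The spread of Prl8a2 among the hypoxia arrays was among the widest on the array. The SD of 1368714_at was 0.27 in ambient and 1.42 in hypoxia, and only 7 of the 18625 kept probe sets varied more among the hypoxia arrays. The median SD over kept probe sets was 0.093 in ambient and 0.107 in hypoxia. Those 7 were probe sets of Mx2, Prss35, Resp18, Psg19, Vch, Lcn2 and Hand1, chosen here after their values were seen. Of them 4 were also lowest on hypoxia replicate 2, Mx2 on replicate 1, and Prss35 and Lcn2 on replicate 3. The share of all kept probe sets lowest on hypoxia replicate 2 was not counted. Without hypoxia replicate 2 the differences of the Prl8a2 probe sets were 3.04 and 2.36 and both passed (limma adjusted p = 0.0030 and 0.0032). Without any other array the adjusted p lay between 0.115 and 0.191. Array weights, which gave hypoxia replicate 2 the lowest weight (0.58), put both past the threshold (0.0206 and 0.0212). That array also had the largest gap between 3′ and 5′ probe sets of beta-actin, which grows as RNA breaks down, at 0.77 against 0.58 and 0.66 on the other hypoxia arrays and 0.41 to 0.54 in ambient. The part of RNA integrity in the spread of Prl8a2, or in its difference between the groups, was not tested.

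**Figure D2:**
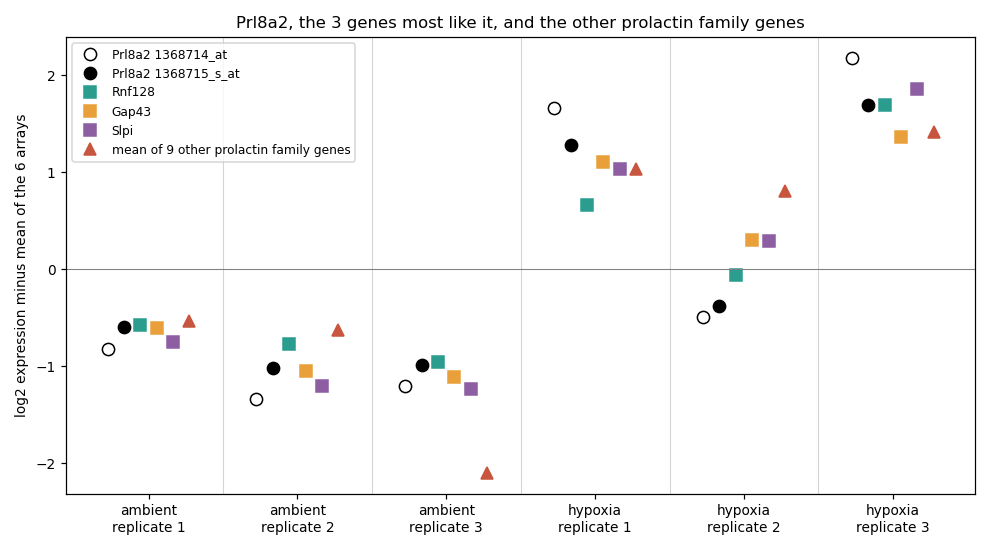
Log2 expression on each array minus the gene's mean over the 6 arrays, for both Prl8a2 probe sets (circles), the 3 genes whose pattern was most like it (squares) and the mean of 9 other prolactin family genes (triangles). Prl8a2 lies below the other prolactin genes on hypoxia replicate 2, and the lowest triangle is on ambient replicate 3.

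Prl8a2 was set beside its relatives, the prolactin family hormones of trophoblast and decidua. Of 17 relatives on the array 9 were measured. The rest (Prl, Prl2b1, Prl3a1, Prl3c1, Prl3d4, Prl7a4, Prl8a4 and Prl8a7) had a mean over the 6 arrays at or below the highest bacterial control. Of the 9 measured, 8 rose (4.48% of all genes did), 0 fell and 1, Prl2a1, was higher by 1.85 and did not pass (adjusted p = 0.0512). The median was 1.93. The 3 with the smallest p were Prl7a3, which rose by 3.64 (SE 0.37, adjusted p = 0.0047), Prl8a9, by 2.51 (SE 0.45, adjusted p = 0.0239), and Prl3b1, which encodes placental lactogen II, by 1.36 (adjusted p = 0.0309). The 8 calls fell to 1 without hypoxia replicate 1 or hypoxia replicate 3, to 2 without ambient replicate 2, to 3 without hypoxia replicate 2 or with a robust trend, and to 4 with no variance trend. Prl2a1 passed without ambient replicate 1 (0.0470) or replicate 3 (0.0443), and with the stricter filter (0.0463), median centring (0.0463) or an offset of 64 (0.0490). Prl7a3 kept its call in every alternative, Prl8a9 lost it without hypoxia replicate 1 (0.0762) or replicate 3 (0.0504), and Prl3b1 lost it without any 1 array but hypoxia replicate 2 (up to 0.111).

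The level of Prl8a2 minus the mean level of the 9 relatives gave 2.52, 2.20 and 3.69 on the ambient arrays and 2.84, 1.39 and 2.87 on the hypoxia arrays. The groups overlapped, with 2.80 ± 0.79 and 2.37 ± 0.84 (SD, n = 3 each), a difference of -0.44 (exact permutation p = 0.6, two-sided; 3 against 3 cannot go below 0.1). Its direction was not settled: the difference was 0.0072 without ambient replicate 3, 0.049 without hypoxia replicate 2, and 0.54 with no filter on low means, which brings in the dimmer relatives. Trophoblast markers, some of which are among the 9 relatives, were also higher in hypoxia. Of 15 measured 10 rose and 0 fell (6 rose without hypoxia replicate 1), and their summed linear signal ran from 3481 to 9147 in ambient and from 17825 to 25302 in hypoxia. Prl7a4, Elf5, Phlda2 and Peg10 had a mean over the 6 arrays at or below the highest bacterial control. On hypoxia replicate 2, where Prl8a2 was low, the mean log2 level of the trophoblast list was 8.92, against 8.88 and 9.26 on the other hypoxia arrays. The part of trophoblast in the Prl8a2 difference was not tested.

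Among 10545 other genes, those with the pattern most like Prl8a2 over the 6 arrays were Rnf128, Gap43 and Slpi. Likeness was the root mean square difference between log2 levels centred on each gene's mean, and it was 0.304, 0.323 and 0.331. Their higher level in hypoxia follows from their choice for likeness to Prl8a2, so their differences are no separate result. Rnf128, a ubiquitin ligase, stood at 6.18, 5.98 and 5.80 in ambient and at 7.41, 6.69 and 8.44 in hypoxia, higher by 1.53 (adjusted p = 0.0537), and its other probe set passed at 2.03 (0.0153). Gap43, a protein of growing nerve endings, rose by 1.84 (SE 0.26, adjusted p = 0.0117) and Slpi, a secreted inhibitor of leukocyte proteases, by 2.12 (SE 0.34, adjusted p = 0.0159). Gap43 averaged 5.58 in ambient, under the filter's 5.74, and 7.42 in hypoxia, so the filter kept it through its hypoxia arrays. The other Gap43 probe set, under the filter, differed by -0.02 (0.889). The call of Gap43 was lost without ambient replicate 3 (0.0515), and that of Slpi without ambient replicate 2 (0.0588) or ambient replicate 3 (0.0692). Rnf128 passed with median centring (0.0485) or array weights (0.0243), and without hypoxia replicate 2 (0.0243) or hypoxia replicate 3 (0.0391).

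Prlr encodes the prolactin receptor (chr2:60861391-61051883). Its brightest probe set, 1370384_a_at, stood at 9.57, 9.52 and 9.56 in ambient and at 9.88, 9.96 and 9.35 in hypoxia. Hypoxia replicates 1 and 2 lay above every ambient array and replicate 3 below all of them, so the groups overlapped. The difference was 0.18 (95% interval from -0.16 to 0.52, adjusted p = 0.506), and without hypoxia replicate 3 it was 0.37 and passed (0.0299). Probe set 1370789_a_at stood at 7.49, 7.31 and 7.54 in ambient and at 7.95, 7.43 and 7.25 in hypoxia, again with hypoxia replicate 3 lowest (0.10, 95% interval from -0.30 to 0.50). Probe set 1369493_at fell under the filter on low means, with values from 5.21 to 5.67 and a difference of -0.10 in the fit without the filter (adjusted p = 0.712). Of 12 measured genes that carry or damp the receptor's signal, 0 passed by limma. An unadjusted p under 0.05 was reached by 3, against 23.7% of all kept probe sets. These were the kinase Jak2 (-0.52, adjusted p = 0.0541), the factor Stat5b (-0.40, 0.112) and the growth hormone receptor Ghr (0.41, 0.0849). Jak2 passed with quantile normalization (0.039), median centring (0.0458), the stricter filter (0.0469), a robust trend (0.0494) or without hypoxia replicate 1 (0.0453), and Ghr without hypoxia replicate 3 (0.0345).

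A2m encodes alpha-2-macroglobulin, a protease inhibitor that rat decidua secretes in quantity (chr4:156570163-156619870). It stood at 14.85, 14.83 and 14.80 in ambient and at 14.82, 14.81 and 14.90 in hypoxia, and the groups overlapped. The difference was 0.018 (SE 0.040, 95% interval from -0.074 to 0.109, adjusted p = 0.822). A2m had the highest value of all probe sets on 4 arrays and the next highest on the other 2, and the highest values on the arrays lay between 14.82 and 14.90. A probe set at the top of an array's range can hide a difference, so this value bounds what the array could show. The genes most like it by the same measure were Fcf1, Eci2 and Armc7, with differences of 0.014, 0.038 and 0.038, which their choice for likeness to A2m fixes. Of 6 measured relatives and receptors of A2m, 0 passed by limma. An unadjusted p under 0.05 was reached by 3, against 23.7% of all kept probe sets. Those were the complement protein C3 (-1.01, adjusted p = 0.105), which passed without hypoxia replicate 1 (0.0453), the endocytic receptor Lrp2 (-0.48, 0.0898) and the receptor chaperone Lrpap1 (0.21, 0.0924). Lrp1, the clearance receptor for A2m bound to a protease, differed by 0.12 (adjusted p = 0.448).

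Of the filament genes, Vim had the smallest difference among all member probe sets and Des did not pass. Des encodes desmin, which both decidual and muscle cells build (chr9:84299626-84307344), and it stood at 13.67, 13.57 and 13.55 in ambient and at 13.82, 13.91 and 13.66 in hypoxia. Hypoxia replicates 1 and 2 lay above all ambient arrays and replicate 3 within them. The difference was 0.20 (SE 0.07, 95% interval from 0.04 to 0.36, adjusted p = 0.126), and without hypoxia replicate 3 it was 0.27 and passed (0.0399). Vim encodes vimentin (chr17:81577261-81585746) and stood at 12.82, 12.77 and 12.79 in ambient and at 12.77, 12.80 and 12.82 in hypoxia, with overlapping groups. Its difference was 0.0029 (SE 0.04, 95% interval from -0.10 to 0.10, adjusted p = 0.976).

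Smooth muscle also makes desmin, so Des was set against 14 measured markers of smooth muscle and pericytes. Of these 14, 0 passed by limma and 3 had an unadjusted p under 0.05, against 23.7% of all kept probe sets. The summed linear signal of the 14 overlapped, from 34269 to 46916 in ambient and from 33385 to 45175 in hypoxia. Cald1 (0.27) passed with the stricter filter (0.0452), median centring (0.0496), a robust trend (0.0487) or array weights (0.037), and Lmod1 without hypoxia replicate 3 (0.0466). The level of Des minus the mean of the markers was 3.03, 3.22 and 3.36 in ambient and 3.16, 3.26 and 3.42 in hypoxia. The groups overlapped, with 3.21 ± 0.16 and 3.28 ± 0.13 (SD, n = 3 each), a difference of 0.07 (exact permutation p = 0.6, two-sided, where 0.1 is the smallest possible). It was -0.013 without ambient replicate 1. Of 8 measured partners of intermediate filaments, 1 rose, 0 fell and 7 did not pass. Cryab, a chaperone that binds desmin, rose by 1.16 (SE 0.12, adjusted p = 0.0047), from 12.68 ± 0.25 to 13.84 ± 0.11 (SD, n = 3 each), and kept its call in every alternative. The count was 3 without hypoxia replicate 3, where the lamins Lmna (0.30) and Lmnb1 (-0.53) also passed (0.0313 and 0.0263). Lmnb1 also passed with the stricter filter, quantile normalization, median centring, an offset of 64, a robust trend or array weights (0.0303 to 0.0494).

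**Figure D3:**
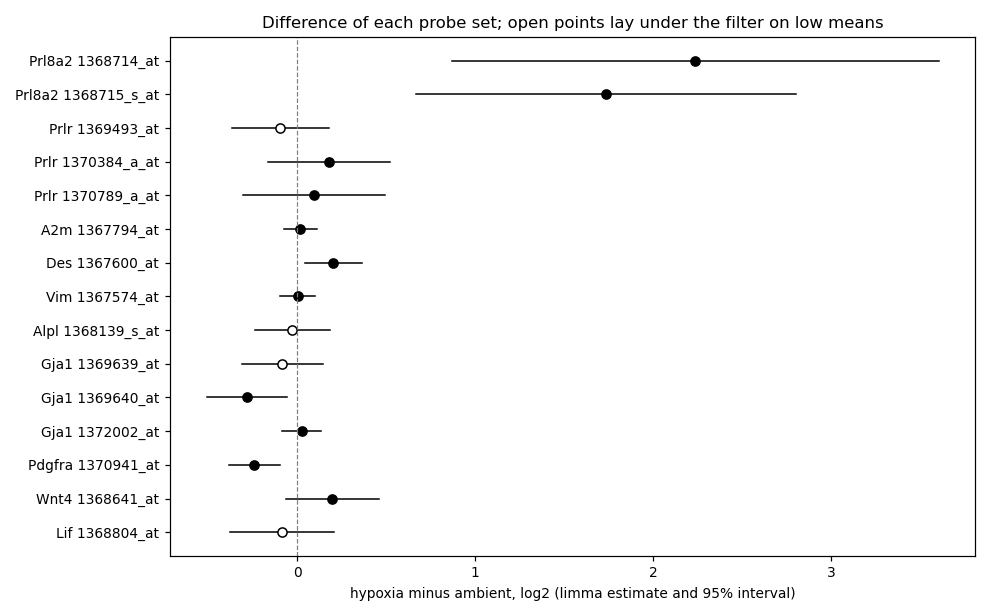
Log2 difference, hypoxia minus ambient, of each member probe set, with its 95% interval from limma. The Prl8a2 intervals, from 0.67 and 0.87 upward, lie apart from the rest, and those of Des, Pdgfra and 1 Gja1 probe set also leave out 0 before adjustment.

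Gja1 encodes connexin 43, the gap junction protein of decidual cells (chr20:36302490-36315010). Its brightest probe set, 1372002_at, stood at 13.60, 13.65 and 13.60 in ambient and at 13.61, 13.60 and 13.72 in hypoxia, overlapping, with a difference of 0.03 (95% interval from -0.09 to 0.14, adjusted p = 0.790). Probe set 1369640_at stood at 10.92, 11.07 and 10.96 in ambient and at 10.67, 10.53 and 10.91 in hypoxia. There the groups did not overlap, although hypoxia replicate 3 came close to the ambient arrays. The difference was -0.28 (95% interval from -0.51 to -0.06, adjusted p = 0.130), and -0.39 without hypoxia replicate 3, where it passed (0.0366). The 2 probe sets thus differed in sign, and the difference between them was not tested. The last probe set, 1369639_at, lay below the highest bacterial control on all 6 arrays and gives no fold. Of 7 other measured connexins and partners, 2 rose, 0 fell and 5 did not pass, with a median of 0.33. Gjb2, which encodes connexin 26, rose by 0.48 (adjusted p = 0.0337) and Gjb5 by 0.41 (0.0412). Both calls were lost without any 1 array (up to 0.107 and 0.102), and that of Gjb2 with no variance trend (0.0503).

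Pdgfra encodes a receptor for platelet-derived growth factor that marks stromal fibroblasts (chr14:33360027-33408604). It stood at 11.58, 11.58 and 11.47 in ambient and at 11.26, 11.39 and 11.27 in hypoxia. All hypoxia arrays lay below all ambient arrays. The difference was -0.24 (SE 0.06, 95% interval from -0.38 to -0.10), or 1.18-fold lower, and did not pass (limma adjusted p = 0.0604). It passed with quantile normalization (-0.27, 0.0446) and with array weights (0.0322), and lay between 0.0633 and 0.171 without any 1 array. Of 4 other measured PDGF ligands and receptors, 0 passed by limma. An unadjusted p under 0.05 was reached by 2, against 23.7% of all kept probe sets. They were the ligand Pdgfc (-0.36, adjusted p = 0.197) and the receptor Pdgfrb of pericytes and stroma (0.35, 0.164). Pdgfrb passed without hypoxia replicate 3 (0.50, 0.0398), and its other 2 probe sets differed by -0.10 and -0.08.

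Wnt4, Alpl and Lif, known from early decidua, were dim on these arrays. Wnt4 encodes a secreted signal of decidualizing stroma (chr5:154797245-154818565) and stood at 5.71, 5.74 and 5.56 in ambient and at 5.69, 6.04 and 5.87 in hypoxia. The groups overlapped, with a difference of 0.20 (95% interval from -0.06 to 0.46, adjusted p = 0.333). Alpl encodes tissue alkaline phosphatase (chr5:155234770-155289785), was left out by the filter, and stood between 5.18 and 5.37 on all 6 arrays. In the fit without the filter it differed by -0.03 (95% interval from -0.24 to 0.18, adjusted p = 0.905). Lif encodes leukaemia inhibitory factor (chr14:83354602-83364053) and stood above the highest bacterial control on 3 of 6 arrays, at 5.30, 4.87 and 4.91 in ambient and at 5.01, 4.79 and 5.02 in hypoxia. It differed by -0.08 in the fit without the filter (95% interval from -0.37 to 0.21, adjusted p = 0.772).

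Receptors and carriers of the signals of Lif and Wnt were followed from their lists. Of 8 measured genes that serve Lif and its relatives, 1 rose, 0 fell and 7 did not pass. Il11ra1, the receptor for interleukin 11, a cytokine needed for decidualization in mice, stood at 7.56, 7.47 and 7.27 in ambient and at 8.16, 8.34 and 8.14 in hypoxia. It rose by 0.78 (SE 0.10, adjusted p = 0.0086) and kept its call in every alternative. Il6st, which encodes the shared receptor chain gp130, was higher by 0.42 on its brightest probe set, which did not pass (0.086), and its other 3 probe sets passed at 0.70, 0.56 and 0.65 (0.0047, 0.0060 and 0.0050). That brightest probe set passed without ambient replicate 1 (0.0394) or with array weights (0.0435). Of 16 measured Wnt ligands, receptors and antagonists, 1 rose, 1 fell and 14 did not pass. Among all genes 4.48% passed as higher and 2.23% as lower. Lef1, a transcription factor of the pathway, fell by 0.45 (adjusted p = 0.0256), and its other probe set gave -0.39 (0.0383). Sfrp1, a secreted Wnt antagonist, rose by 0.74 (adjusted p = 0.0486), and its other probe sets gave 0.22 (0.267) and, under the filter, 0.58 (0.0814), neither past the threshold. Lef1 lost its call without any 1 array but hypoxia replicate 3 (up to 0.0936). Sfrp1 kept it without ambient replicate 1 and lost it without each other array (up to 0.150), with quantile normalization (0.0547) and with no variance trend (0.0609). Of 8 measured phosphate ester and mineral genes beside Alpl, 0 rose, 1 fell and 7 did not pass. Enpp3, an ectoenzyme that splits nucleotides, fell by 0.57 (adjusted p = 0.0284), a call that did not hold without hypoxia replicate 2 (0.0791), ambient replicate 2 (0.089) or ambient replicate 3 (0.104). Without hypoxia replicate 3 the count was 4, with Enpp1 (0.37), Enpp2 (-0.54) and Phospho1 (0.81) added. Enpp2 also passed with quantile normalization (0.0496), an offset of 64 (0.0494), a robust trend (0.0489) and array weights (0.0364), the last with Phospho1 too (0.0359).

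Wider decidual regulators and products were followed as a list. Of 27 measured genes, 2 rose, 1 fell and 24 did not pass, with a median of 0.03. Over all genes 6.7% passed, 4.48% as higher and 2.23% as lower. An unadjusted p under 0.05 was reached by 10, against 23.7% of all kept probe sets. Hand2, a stromal transcription factor below the progesterone receptor, rose by 0.64 (SE 0.07, adjusted p = 0.0060), from 7.88 ± 0.06 to 8.52 ± 0.06 (SD, n = 3 each), kept its call in every alternative, and its other probe set gave 0.86 (0.0335). Bmp2, a growth factor needed for decidualization in mice, rose by 0.91 (SE 0.20, adjusted p = 0.0412). Bmp2 averaged 5.67 in ambient, under the filter's 5.74, and 6.58 in hypoxia, so the filter kept it through its hypoxia arrays. Its other probe set, under the filter, gave 0.38 and did not pass (0.0861). The call held without ambient replicate 1, but not without any other array (up to 0.132) or with no variance trend (0.0502). Tdo2, a tryptophan-degrading enzyme of decidua, fell by 1.17 (SE 0.24, adjusted p = 0.0358), and lost its call without any 1 array but hypoxia replicate 1 (up to 0.0974). Igfbp1, singled out after its values were seen, stood at 8.70, 7.66 and 7.88 in ambient and at 7.23, 5.90 and 5.28 in hypoxia, lower by -1.94, and did not pass (adjusted p = 0.0525). Igfbp1 passed without hypoxia replicate 1 (-2.49, 0.0192) and with quantile normalization (0.0472), median centring (0.0459) or an offset of 64 (0.0477). Without ambient replicate 2 or ambient replicate 3 the list's count was 1, and it was 5 when any probe set of a gene could make the call, through second probe sets of Fkbp5 (-0.43) and Cited2 (0.52). Ptgs2, left out by the filter, stood at 4.93, 5.25 and 4.50 in ambient, above the bacterial controls on 1 array, and at 7.10, 6.09 and 6.41 in hypoxia (1.64, adjusted p = 0.0140 without the filter). With 2 ambient arrays at background level, part of that difference is against background and its size is uncertain.

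**Figure D4:**
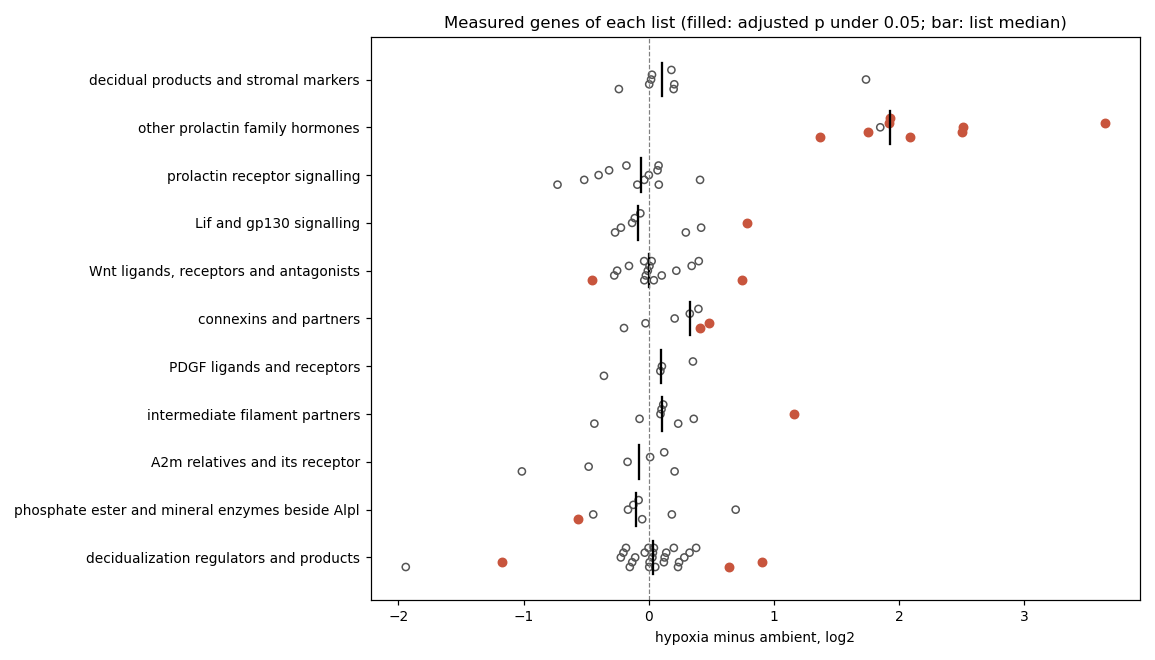
Log2 difference, hypoxia minus ambient, of every measured gene among the members and in each of the 10 pathway lists (1 point a gene, with the median marked); cell type marker lists are not drawn. The other prolactin family genes lie above 0 with a median of 1.93, and the medians of the other pathway lists lie between -0.10 and 0.33.

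Markers of other cell types gave the setting for these values, and their part in them was not tested. Of all genes 4.48% rose and 2.23% fell. Endothelial markers rose in 6 of 12 and fell in 0, with summed linear signal from 7349 to 7807 in ambient and from 8800 to 9356 in hypoxia. Natural killer cell markers rose in 0 of 14 and fell in 4, from 55013 to 61904 and from 46308 to 49057. Gzma had a mean over the arrays at or below the highest bacterial control. Macrophage markers rose in 0 of 12 and fell in 1 (Cd163), epithelial markers in 0 and 2 of 5 (Epcam and Cdh1), and red cell markers in 4 and 0 of 5. The array held 10 epithelial and 9 red cell markers, and those under the filter were not counted. Among these, Cldn4, Foxa2, Epb42, Rhag and Hemgn had a mean over the arrays at or below the highest bacterial control. The sums ran from 8151 to 9123 and from 7120 to 7888 for macrophages, from 744 to 1070 and from 381 to 654 for epithelium, and from 7536 to 10393 and from 18101 to 22485 for red cells, ambient first. Leaving out hypoxia replicate 1, hypoxia replicate 2, ambient replicate 2 or ambient replicate 3 took the endothelial count to 2. The natural killer cell count was 1 without ambient replicate 3 or hypoxia replicate 1. The epithelial count was 2 without hypoxia replicate 1 and 0 without each other array, and 0 with a robust trend or array weights.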

How the data were processed

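The deposited values were log2 expression, 1 per probe set and array, and the log2 scale was read from the values of the authors' table. Per the submitters' processing notes MAS5 and Affymetrix Expression Console were used, in a role and version not stated. How background, summarization and scaling were handled is not given in the sources used here. Per the labels' protocols, total RNA was extracted with Trizol and biotinylated cRNA was made from 6 ug.

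The 57 control probe sets and the 40% of the rest with the lowest mean (below 5.74) were left out, which kept 18625. The 2 oxygen groups were compared with limma 3.58.1 in R 4.3.3 (lmFit, then eBayes with trend, 1 term for group, two-sided). P-values were adjusted by Benjamini-Hochberg over all 18625, with a threshold of 0.05. Every adjusted p comes from it unless another fit is named, with n = 3 arrays a group. The probe set with the highest mean stood for a gene. Counts in the lists are thus of genes, while the 23.7% at an unadjusted p under 0.05 is over all kept probe sets. Members under the filter took their values from the fit without it. The 2 values set against a list were compared by exact permutation over arrays. Summed signals are sums of unlogged values. The highest of 27 bacterial control probe sets on any array (5.003) served as the guide to background. Array medians lay between 6.44 and 6.47. Within-group correlations lay between 0.989 and 0.993, and no arrays were identical. The gap between 3′ and 5′ probe sets of beta-actin was 0.50 ± 0.07 in ambient, and 0.67 ± 0.10 in hypoxia. The groups did not overlap, and p = 0.1 by exact permutation is the smallest possible. The GAPDH gap overlapped, at -0.03 ± 0.02 in ambient and 0.004 ± 0.05 in hypoxia. The part of RNA integrity in the differences between groups was not tested. Precision is limited by the number of arrays. Symbols came from the platform annotation, updated through RefSeq, and 20826 of 31042 probe sets had 1 symbol. The fit was tested on simulated data.

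The named genes were all members, the 3 genes of smallest p (or fewer) among those called in each list, and the 3 genes most like Prl8a2 and A2m. The members, lists and naming rule were chosen with earlier results of these data known. Alternatives were no filter, a 60% filter, quantile normalization, median centring, an offset of 64 on the linear signal, no variance trend, a robust trend, array weights, a replicate block, any probe set of a gene, and leaving out each array.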

Additional observations from a re-analysis of the deposited data

How the results depend on the processing

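Against 0 member genes called with limma (3 at an unadjusted p under 0.05), the count was 1 with quantile normalization (Pdgfra), 2 with array weights (Prl8a2 and Pdgfra) and 0 to 2 leaving out each array. It was 1 without hypoxia replicate 2 (Prl8a2) and 2 without hypoxia replicate 3 (Prlr and Des). Against 1116 probe sets called, leaving out 1 array gave 267 (ambient replicate 3), 344 (ambient replicate 2), 450 (hypoxia replicate 1), 486 (hypoxia replicate 2), 536 (ambient replicate 1) and 1029 (hypoxia replicate 3). Of all calls 67.1% were higher in hypoxia, 55.4% with quantile normalization, and from 66.4% to 83.5% leaving out each array (83.5% without ambient replicate 3, 81.5% without hypoxia replicate 2, 77.3% without ambient replicate 2). Of the alternatives for single genes, 369 kept direction and call, 16 gained and 50 lost the call, and 10 turned the sign.

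The labels do not say whether the replicate numbers pair the arrays. Deviations from the group means correlated at 0.012, 0.071 and 0.070 between arrays of the same number, which cannot settle it. A replicate block gave 1317 probe sets and 1 member gene, Prl8a2 (adjusted p = 0.0290, and 0.0262 on its other probe set). With the block Igfbp1 (0.0054) and Rnf128 (0.0404) passed as well. So did Il6st (0.0195, brightest probe set), Lrp2 (0.0308), C3 (0.0376), Cald1 (0.0380), Hand1 (0.0411), Lmnb1 (0.0474) and Stat5b (0.0496). Sfrp1 lost its call (0.0532). With the block Prl8a2 minus its relatives gave -0.44 (exact p = 0.5) and Des minus the muscle markers 0.07 (exact p = 0.25). The blocked test cannot go below 0.25.

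Prl8a2 minus its relatives was 0.54 with no filter, and ran from -0.74 to 0.049 leaving out each array (0.0072 without ambient replicate 3, 0.049 without hypoxia replicate 2). Des minus the muscle markers ran from -0.013 (without ambient replicate 1) to 0.15. The sign also turned for differences near 0: Vim with quantile normalization (-0.045) and from -0.011 to 0.019 leaving out each array, Gja1 1372002_at (-0.0039, and from -0.014 to 0.047), Fcf1 (-0.018, and from -0.0056 to 0.026), A2m (from -0.0097 to 0.035), Prlr 1370789_a_at (from -0.11 to 0.25) and Armc7 (from -9.33e-05 to 0.058). The cause was not tested. Signal limits Lif, Alpl and Wnt4, which lie near background, and A2m, which lies at the top of the range.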
